A study of Mus musculus with 34 samples.

Results

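The integrin β subunit genes *Itgb1*, *Itgb2*, *Itgb3*, *Itgb5*, *Itgb7* and *Itgb8* were examined in single cells of mouse ear skin, together with *Itgb1bp1*, which encodes ICAP1, a cytoplasmic protein that binds the tail of the β1 subunit and is itself no subunit. These 7 genes were taken by name out of 25853 genes in the tables, with no threshold on their levels. Levels are given as transcripts per 10000 transcripts of a mouse or library, with predicted genes named Gm and a number left out of the total. A transcript here is a captured RNA molecule counted once at its 3' end by its molecular identifier (UMI), so that levels of different genes were compared without dividing by gene length.

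Integrins are heterodimers of an α and a β subunit that span the plasma membrane, bind matrix proteins or receptors on other cells outside, and couple to F-actin inside. Talin binds the cytoplasmic tail of the β subunit, and this binding, helped by kindlins, switches the heterodimer to the state that holds its ligand. The β subunit also limits the choice of partners: β1 pairs with many α subunits to bind fibronectin, laminins and collagens, β2 is the subunit of leukocyte integrins, β3, β5 and β8 pair with αV (β3 also with αIIb), and β7 pairs with α4 or αE in leukocytes and MC progenitors.

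The study sorted dermal mast cells (MCs) from ears of 3 control and 3 *Tln1*ΔMC male mice aged 7 weeks to learn what loss of talin-1 from MCs changes. Both genotypes carried *Mcpt5-cre*+/- and *R26*LSL:YFP on an albino C57BL/6J background (*Tyr*c-2J), and *Tln1*ΔMC mice were also *Tln1*fl/fl, whereas their littermate controls, called WT, were *Tln1*+/+. MCs were gated as CD45+Lin-YFP+ cells, so that only cells in which the *Mcpt5* promoter had driven Cre were taken, and the gate excluded cells with lineage markers, among them CD11c, CD3e and NK1.1. CD45-GFP+ cells came from ears of *Myh11-GFP* mice on a C57BL/6J background, in which the smooth muscle myosin promoter drives GFP, and the number of these mice is not given, so that this group was treated as 1 sample with no test. The number after the genotype in the library names was taken as the mouse, which neither the labels nor the methods say in words.

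Barcodes above 1000 transcripts passed, unless *Kcnq1ot1* took over 2% of them, which gave 2477 cells in 30 MC libraries and 330 cells in 4 *Myh11-GFP* libraries. The median cell held 3295 UMIs outside Gm genes in MC libraries and 3904.5 in *Myh11-GFP* libraries, and Gm genes took between 14.2% of the transcripts in *Tln1*ΔMC mouse 3 and 58% in WT mouse 3. All 34 libraries used the same sets of plate barcodes, so that every barcode number kept occurs in more than 1 library and names no cell by itself. MC markers (10 genes) summed to between 670 and 899 transcripts per 10000 in the 6 mice. In the *Myh11-GFP* libraries they summed to between 0.406 and 0.558, and vascular smooth muscle markers (11 genes) to between 221 and 257. Fibroblast markers (10 genes) summed higher than the smooth muscle markers in each *Myh11-GFP* library, to between 274.1 and 495.4. The MC libraries also held clusters led by genes of other cell types: 91 barcodes were macrophage-like, 84 fibroblast-like and a further cluster keratinocyte-like. These barcodes carried MC transcripts as well, with *Cpa3*, an MC protease, at 62.8 to 103.9 per 10000 against 131.4 in MC-like cells, so that other cells, mixtures and MCs with such transcripts cannot be told apart. Clusters of 88, 30 and 21 cells were left unnamed. That of 30 was led by liver genes such as *Apoa1* and that of 21 by granulocyte genes such as *Ngp*, and both came only from mouse 1 of each genotype. The unnamed cells stayed in where macrophage-like, fibroblast-like and keratinocyte-like cells were left out, but not in MC-like clusters alone. Library 3 of WT mouse 2, where macrophage markers were highest at 93.2 per 10000, and library 8 of *Tln1*ΔMC mouse 3, which gave 17 of the 38 *Itgb5* transcripts of MC libraries, stood apart, and results that rest on them are given without them as well. Among MC libraries, fibroblast markers were highest in library 1 of WT mouse 2 (519.5 per 10000) and library 2 of WT mouse 3 (276.1). No comparison of genotypes left out these libraries alone. *Tln1* itself read 4.51, 5.92 and 6.71 per 10000 in WT mice and 5.57, 4.33 and 3.63 in *Tln1*ΔMC mice, which overlapped. Whether the counted 3' ends lie outside the deleted exons is not given in the sources used here, so that these reads do not check the deletion.

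*Itgb1*, on chromosome 8 of GRCm38 (128685654 to 128733200), was by level the first of the 6 subunits in every mouse and every library. MCs held 3.01, 3.12 and 3.26 transcripts per 10000 in WT mice 1 to 3 and 2.81, 2.52 and 2.68 in *Tln1*ΔMC mice 1 to 3. The 4 *Myh11-GFP* libraries held 8.41, 8.62, 9.30 and 8.22 transcripts per 10000. Every *Myh11-GFP* library thus lay above every MC mouse, and the pooled level, over 1248 and 2767 transcripts, was 3.10-fold higher (exact 95% Poisson interval 2.90 to 3.32, counting error only). *Itgb1* made up between 70.2% and 76.1% of the transcripts of the 6 subunits in MCs and between 90.7% and 92.6% in *Myh11-GFP* libraries.

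*Itgb7*, on chromosome 15 (102215995 to 102231944), was the next subunit in MCs. Its levels were 0.832, 0.880 and 1.03 per 10000 in WT mice and 0.718, 0.866 and 0.754 in *Tln1*ΔMC mice, from a total of 798 transcripts. In the 4 *Myh11-GFP* libraries not a single transcript was found, which allows a level of up to 0.0208 per 10000 over the group (3 counts of the total). The mean MC level was thus at least 40.6-fold higher, and *Itgb7* took between 19.3% and 24.8% of the subunit transcripts of MCs.

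*Itgb5*, on chromosome 16 (33829665 to 33949338), showed the opposite order. *Myh11-GFP* libraries held 0.627, 0.578, 0.850 and 0.767 transcripts per 10000, and MC mice held between 0.00849 and 0.0572. The groups did not overlap, the pooled level was 18.1-fold higher in *Myh11-GFP* cells (12.3 to 27), and *Itgb5* took between 6.21% and 8.50% of the subunit transcripts there against at most 1.41% in MCs. *Tln1*ΔMC mouse 3 read 0.0497 with its library 8 and 0.0208 without it.

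Because *Itgb1* and *Itgb5* were both higher in *Myh11-GFP* cells and *Itgb7* was found in MC libraries alone, the 250 bases before the start of these 3 genes are shown for comparison, 5' to 3' on the strand of the gene, from RefSeq on GRCm38.p6, with each CG in capitals. They lie at chr8:128685404-128685653 (plus strand) for *Itgb1*, chr16:33829415-33829664 (plus strand) for *Itgb5* and chr15:102231936-102232185 (minus strand) for *Itgb7*. The starts are those of RefSeq, and the gene positions in this text are those of GENCODE. By the latter, the *Itgb7* window reaches into the gene, and the *Itgb8* window, counted below, lies inside it.
Itgb1: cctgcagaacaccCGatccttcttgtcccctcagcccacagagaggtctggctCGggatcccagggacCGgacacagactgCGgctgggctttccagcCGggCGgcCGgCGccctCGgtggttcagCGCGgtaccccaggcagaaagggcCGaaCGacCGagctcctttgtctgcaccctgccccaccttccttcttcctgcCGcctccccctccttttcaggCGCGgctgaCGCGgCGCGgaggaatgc
Itgb5: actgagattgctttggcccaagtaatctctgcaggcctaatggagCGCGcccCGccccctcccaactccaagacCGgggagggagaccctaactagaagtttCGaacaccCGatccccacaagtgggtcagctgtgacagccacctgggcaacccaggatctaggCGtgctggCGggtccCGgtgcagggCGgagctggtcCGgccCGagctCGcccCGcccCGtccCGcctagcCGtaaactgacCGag
Itgb7: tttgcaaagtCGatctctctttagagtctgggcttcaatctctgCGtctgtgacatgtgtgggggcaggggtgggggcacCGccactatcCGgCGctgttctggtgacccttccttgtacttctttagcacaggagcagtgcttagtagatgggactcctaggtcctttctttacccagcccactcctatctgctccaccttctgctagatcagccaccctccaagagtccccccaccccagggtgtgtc
The *Itgb1* window held 21 CG and the *Itgb5* window 18, against 5 in that of *Itgb7*, and the median of 32851 promoters of the same length was 6. *Itgb1bp1* and *Itgb8* held 17 and 12, and 5 of the 7 genes matched an entry. GGGCGG, searched on both strands, and overlapping the counted CG by its own letters, occurred 3 times before *Itgb5* and once before *Itgb1* but not before *Itgb7*, *Itgb8* or *Itgb1bp1*, and 32.7% of all promoters held it. GATAA, found in 22.6% of promoters on either strand, and the CArG box, found in 1.47%, occurred in none of the 5 windows. These matches describe letters and not binding.

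*Itgb1bp1*, on chromosome 12 (21240825 to 21286284), was present in both kinds of cells. WT mice read 0.324, 0.453 and 0.343 per 10000, *Tln1*ΔMC mice 0.231, 0.314 and 0.344, and *Myh11-GFP* libraries 0.272, 0.551, 0.398 and 0.497. These ranges overlapped, and the pooled ratio of *Myh11-GFP* to MC cells was 1.20 (0.892 to 1.58).

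*Itgb2*, on chromosome 10 (77530252 to 77565708), which encodes the β2 subunit of leukocyte integrins, was rare. WT mice held 14, 36 and 14 transcripts (0.162, 0.314 and 0.200 per 10000) and *Tln1*ΔMC mice 6, 3 and 20 (0.0769, 0.0255 and 0.0382). The *Myh11-GFP* libraries, which were gated as CD45-, held 4, 2, 2 and 1 transcripts, and the pooled ratio of 0.666 had an interval from 0.295 to 1.32.

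*Itgb8*, on chromosome 12 (119158022 to 119238802), was found with 33 transcripts in MCs and 5 in *Myh11-GFP* cells. WT mice held 6, 8 and 4 transcripts and *Tln1*ΔMC mice 6, 8 and 1, so that 5 of the 6 mice lay between 0.0572 and 0.0769 per 10000, and *Tln1*ΔMC mouse 3, whose cells gave the most transcripts of all mice, lay at 0.00191. *Itgb3*, on chromosome 11 (104608000 to 104670476), the partner of αV and αIIb, was at the limit of detection with 5 transcripts in MCs and 1 in *Myh11-GFP* cells. Neither gene was deep enough for the cell types to be ranked.

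**Figure D1:**
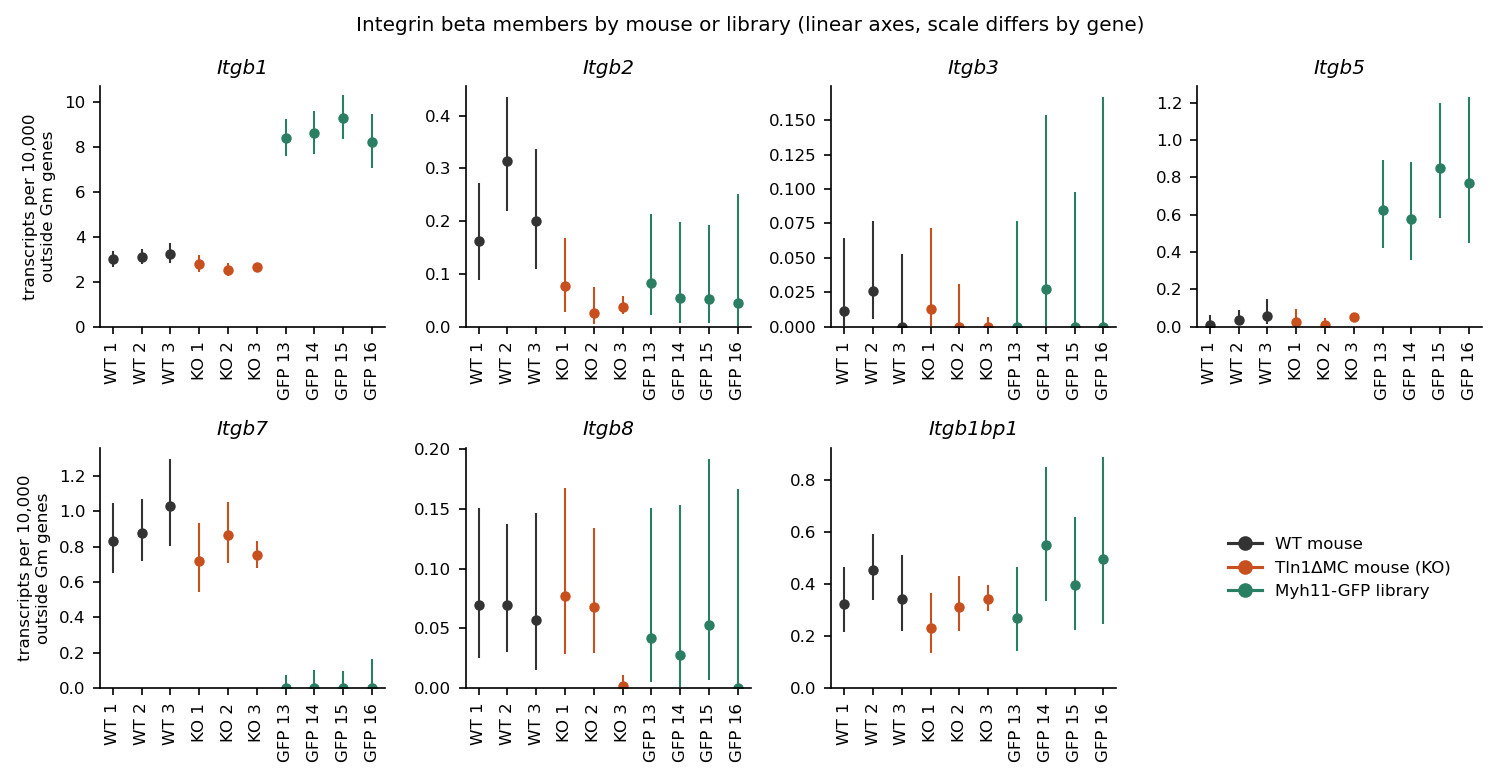
Transcripts per 10000 outside Gm genes (y axes, linear, a scale for each gene) of the 7 genes in 3 WT mice, 3 *Tln1*ΔMC mice (KO) and 4 *Myh11-GFP* libraries (GFP), where points are levels and lines exact 95% Poisson intervals. *Itgb1* and *Itgb5* lay higher in all 4 *Myh11-GFP* libraries, at 8.22 or above and at 0.578 or above, whereas *Itgb7* lay at 0 there and at 0.718 or above in all 6 MC mice.

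The order of levels in MCs was thus *Itgb1*, *Itgb7*, *Itgb1bp1*, *Itgb2*, *Itgb8*, *Itgb5* and *Itgb3* by the mean of the 6 mice (2.90, 0.847, 0.335, 0.136, 0.0572, 0.0312 and 0.00842). The ranges over mice of *Itgb1*, *Itgb7* and *Itgb1bp1* did not touch each other, whereas that of *Itgb2* overlapped those of *Itgb1bp1*, *Itgb8*, *Itgb5* and *Itgb3*, and the last 3 overlapped each other. *Itgb8* and *Itgb5* changed places in the pooled levels (0.0333 and 0.0384), so that the order below *Itgb1bp1* is not settled. In *Myh11-GFP* cells the order was *Itgb1*, *Itgb5*, *Itgb1bp1*, *Itgb2*, *Itgb8*, *Itgb3* and *Itgb7*, with means over the 4 libraries of 8.64, 0.706, 0.429, 0.0592, 0.0306, 0.00688 and 0. There the ranges of *Itgb1*, *Itgb5* and *Itgb1bp1* also stood apart, and the range of *Itgb8* overlapped those of *Itgb2* and *Itgb3*.

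**Figure D2:**
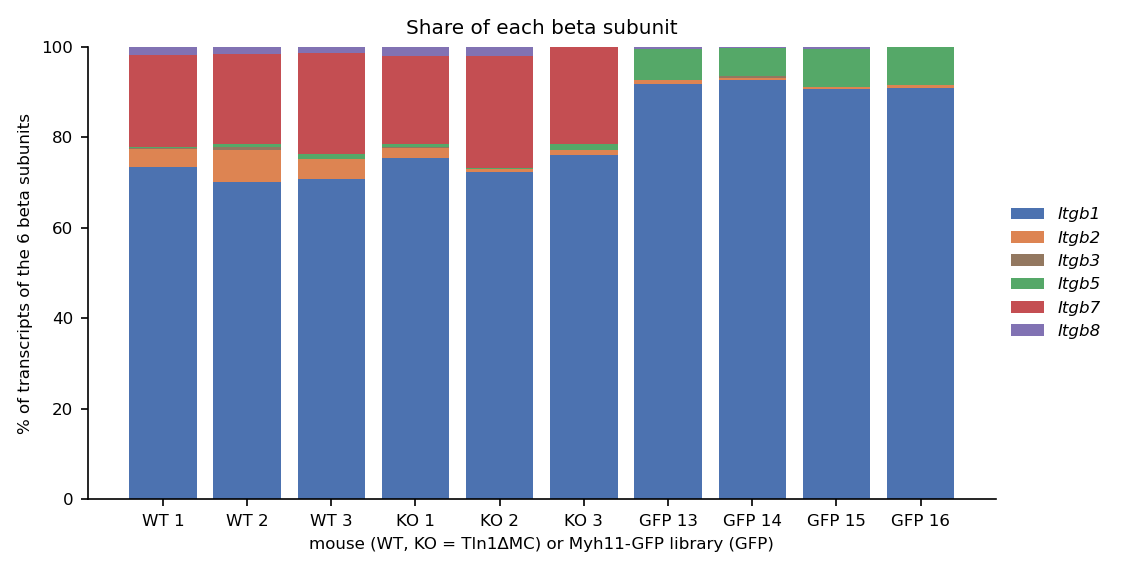
Share in percent (y axis) of each of the 6 subunits in their summed transcripts, as stacked bars for each mouse (WT, KO for *Tln1*ΔMC) and each *Myh11-GFP* library (GFP). After *Itgb1*, the tallest block is *Itgb7* in MCs, at 19.3% to 24.8%, and *Itgb5* in *Myh11-GFP* libraries, at 6.21% to 8.50%.

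The α subunits, listed as 18 genes, gave the partners that the β subunits could find in each cell type. The list's 4 highest genes in MCs were *Itga2b*, *Itga9*, *Itga4* and *Itga2*. *Itga2b*, which encodes αIIb, the partner of β3, read between 3.13 and 4.48 per 10000 over the 6 MC mice, above *Itgb1* in every mouse, while *Itgb3* gave 5 transcripts in all. *Itga9*, a partner of β1, read between 1.46 and 1.97, and *Itga4*, which pairs with β1 or β7, between 0.558 and 1.27, against 0.718 to 1.03 for *Itgb7*. *Itgae*, the αE partner of β7, read at most 0.0693. Among β2 partners *Itgam* read between 0.0401 and 0.258, in the range of *Itgb2* itself, and *Itgal*, *Itgax* and *Itgad* at most 0.0262, 0.0172 and 0.0128. *Itgav*, the partner of β5 and β8, read between 0.186 and 0.269, and *Itga5*, the fibronectin-binding partner of β1, between 0.127 and 0.514. In *Myh11-GFP* libraries *Itga7*, a laminin-binding partner of β1, read between 2.78 and 4.43, *Itga1*, a collagen-binding partner of β1, between 0.982 and 1.49, *Itga8*, a further partner of β1, between 0.767 and 1.19, and *Itgav* between 0.251 and 0.796. Apart from the 4 highest genes, these α subunits were picked from the list after their values were seen.

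Genotypes were compared over mice, since the cells of a mouse are not replicates. In sums over cells, fewer cells that express a gene and less RNA in each cell cannot be told apart. Of the 7 genes, *Itgb1*, *Itgb2*, *Itgb7* and *Itgb1bp1* passed the filter of at least 10 transcripts in at least 3 mice. With limma across 8601 genes, 0 of these 4 were called at an adjusted p under 0.05, and 0 of all genes were called lower (0%) or higher (0%) in *Tln1*ΔMC mice. At an unadjusted p under 0.05, *Itgb2* was the single gene of the 4, among 202 genes lower (2.35%) and 301 higher (3.50%), and with voom weights limma called 2 genes lower, neither of them among the 7. Levels lay lower in all 3 *Tln1*ΔMC mice than in any WT mouse for *Itgb1* and *Itgb2*, against 6.31% of the 8601 genes, and higher for none of the 4, against 5.34%.

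The *Itgb1* levels given above had means of 3.13 ± 0.128 (SD, n = 3) in WT mice and 2.67 ± 0.143 (SD, n = 3) in *Tln1*ΔMC mice, a ratio of 0.853. The exact two-sided permutation test over the 6 mice gave p = 0.1, the smallest value that 3 mice against 3 allow. In limma the log2 fold change was -0.19 ± 0.17 (SE) with an adjusted p of 0.882. The genotypes did not overlap in these levels, but the difference was small against the spread that limma estimates for genes of this level. On the TMM-scaled values that limma used, the genotypes did overlap. There WT mouse 1 read 277.9 and *Tln1*ΔMC mouse 1 read 279.7 transcripts per 1000000. Within sets of libraries whose unused barcodes had alike profiles, WT mouse 1 and *Tln1*ΔMC mouse 1 read 3.01 and 2.81, whereas WT mice 2 and 3 together and *Tln1*ΔMC mouse 2 read 3.19 and 2.52. *Tln1*ΔMC mouse 3 formed a set of its own.

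*Itgb2* had means of 0.225 ± 0.0790 (SD, n = 3) in WT and 0.0469 ± 0.0268 (SD, n = 3) in *Tln1*ΔMC mice, which was 4.81-fold higher in WT mice (exact permutation p = 0.1). Its log2 fold change in limma was -2.07 ± 0.49 (SE), with an unadjusted p of 0.00181 and an adjusted p of 0.489, and so did not pass the threshold. The same sets of libraries read 0.162 and 0.0769 (mouse 1 of each genotype), and 0.257 and 0.0255 (WT mice 2 and 3 against *Tln1*ΔMC mouse 2). Macrophages and neutrophils are known for β2 integrins, and macrophage markers (12 genes, 11 in the tables) were highest in WT mice 2 and 3 but overlapped between genotypes: they summed to 2.38, 42.3 and 17.2 per 10000 in WT mice and to 2.18, 1.66 and 7.96 in *Tln1*ΔMC mice, with *Mrc1* at 0 in WT mouse 1, *Pf4* at 0 in *Tln1*ΔMC mouse 1 and *C1qa* and *Mrc1* at 0 in *Tln1*ΔMC mouse 2. WT mice 2 and 3 were highest in both, whereas WT mouse 1 read lower than *Tln1*ΔMC mouse 3 for macrophage markers and higher for *Itgb2*. The part of macrophage transcripts in the *Itgb2* result was not tested. With macrophage-like, fibroblast-like and keratinocyte-like cells left out, *Itgb2* read 0.160, 0.181 and 0.0877 against 0.0784, 0.0262 and 0.0236, still without overlap, and the WT mean stood 3.34-fold above. The nearest values, of WT mouse 3 and *Tln1*ΔMC mouse 1, rest on only 5 and 6 transcripts, however. Without library 3 of WT mouse 2, that mouse read 0.247 in place of 0.314.

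*Itgb7* overlapped between genotypes (exact permutation p = 0.2), with a log2 fold change in limma of -0.19 ± 0.21 (SE) and an adjusted p of 0.902. With these 3 clusters left out, however, WT mice read 0.875, 1.09 and 1.07 and *Tln1*ΔMC mice 0.732, 0.857 and 0.807, which no longer overlapped. *Itgb1bp1* followed the same course, from overlap (exact permutation p = 0.3, log2 fold change -0.29 ± 0.26 with an adjusted p of 0.883 in limma) to 0.345, 0.470 and 0.368 in WT against 0.209, 0.297 and 0.335 in *Tln1*ΔMC mice. Under this selection the levels of all 4 genes tested were lower in each *Tln1*ΔMC mouse than in any WT mouse, against 6.08% of 7926 genes lower and 5.26% higher, and limma again called 0 genes. In MC-like clusters alone, *Itgb1*, *Itgb7* and *Itgb1bp1* were lower without overlap, against 6.10% of 7734 genes lower and 5.25% higher, and *Itgb2* fell under the filter.

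A further selection turned on Gm genes. In cells with under 50% Gm transcripts, *Itgb1* read 3.29, 3.25 and 3.84 in WT mice and 2.90, 2.76 and 2.67 in *Tln1*ΔMC mice, a WT mean 1.25-fold higher. *Itgb7* read 0.844, 0.806 and 0.902 against 0.825, 0.908 and 0.759 there, so that the genotypes overlapped and their means were 0.851 and 0.831. The lack of overlap of *Itgb7* thus depended on which cells were taken. In levels without TMM scaling, that of *Itgb1* and *Itgb2* held in each of the 4 selections plotted. For *Itgb1* the lack of overlap did not hold with TMM scaling of all kept cells. For *Itgb2* it rests on few transcripts: in MC-like clusters WT mouse 3 and *Tln1*ΔMC mouse 1 held 5 each.

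**Figure D3:**
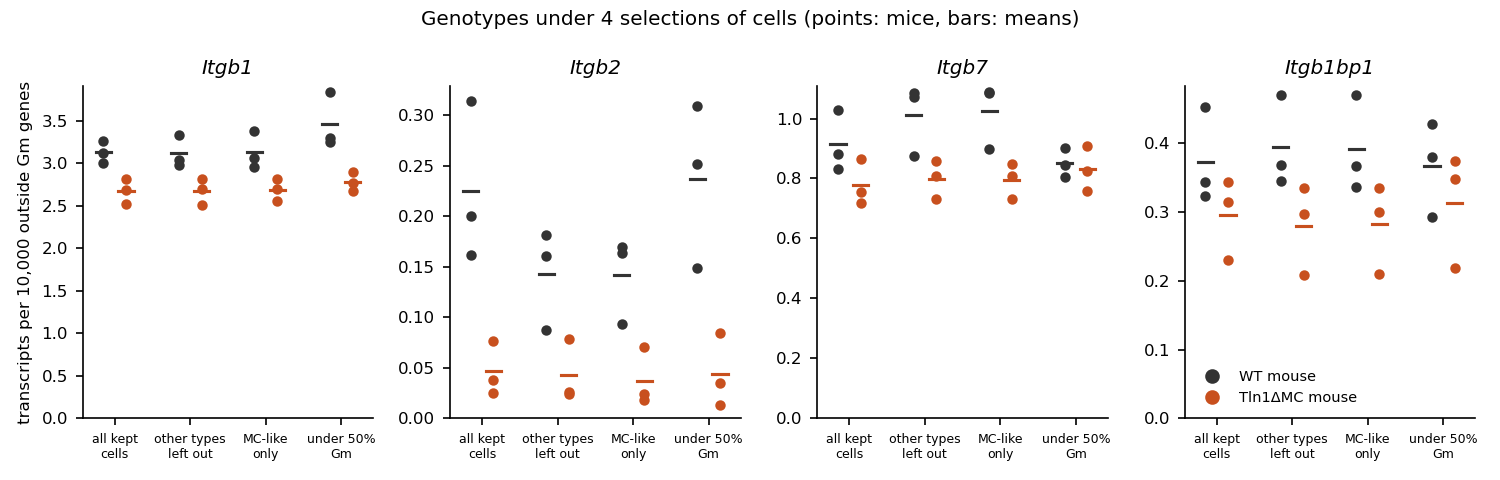
Transcripts per 10000 outside Gm genes (y axes, linear, a scale for each gene) in each WT and *Tln1*ΔMC mouse (points) with the mean of 3 mice (bars), for all kept cells, without macrophage-like, fibroblast-like and keratinocyte-like cells, for MC-like clusters alone, and for cells with under 50% Gm transcripts. *Itgb1* and *Itgb2*, the latter on few transcripts, did not overlap in any selection, whereas *Itgb7* and *Itgb1bp1* overlapped in the first and the last.

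Detection in single cells was compared after thinning each cell to 1000 UMIs outside Gm genes, which left out 282 of 2477 MCs and 23 of 330 *Myh11-GFP* cells. *Itgb1* was found in 477 of 2195 MCs (21.7%, exact 95% binomial interval 20.02 to 23.5) and in 53.4% of 307 *Myh11-GFP* cells (47.7 to 59.1). Without thinning the shares were 52.6% and 82.7%. *Itgb7* was found in 7.02% of 2195 MCs and in 0 of 307 *Myh11-GFP* cells, which allows a share of cells with a UMI of up to 0.977%. *Itgb5* was found in 3 MCs (0.137%) and 20 *Myh11-GFP* cells (6.51%), and *Itgb1bp1* in 68 (3.10%) and 10 (3.26%). For genes this rare, the share of cells at 1000 UMIs largely follows from the mean level, so that these shares repeat the differences in level. They cannot tell more cells that express a gene from more RNA in each cell.

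Few cells showed more than a single β subunit at this depth. Among thinned MCs, 71.8% held no transcript of the 6 subunits, 26.4% of a single subunit and 1.82% of more than that, and among *Myh11-GFP* cells the shares were 43.3%, 52.4% and 4.24%. *Itgb7* was found in between 3.92% and 12.3% of the MCs with *Itgb1* and in between 4.76% and 8.20% of those without it, over the 6 mice, and the share was higher among cells with *Itgb1* in 3 of 6 mice. Thinned to 1000 UMIs, a cell without a transcript cannot be told from a cell that does not express the gene.

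Between genotypes, thinned shares for *Itgb1* were 23.7%, 19.8% and 20.9% in WT and 21.3%, 20.2% and 22.5% in *Tln1*ΔMC mice, which overlapped (exact permutation p = 1.0). Averaged over all possible drawings of 1000 UMIs, the shares were 23.49%, 23.98% and 24.49% against 22.98%, 19.41% and 22.31% and did not overlap (exact permutation p = 0.1). Averaged over drawings of 500 UMIs, the shares were 13.1%, 12.2% and 10.9% against 11.9%, 9.91% and 11.8% and overlapped (exact permutation p = 0.4). Whether the genotypes overlapped in *Itgb1* detection thus depended on the thinning. *Itgb2* was found in 1.98%, 1.91% and 1.53% of thinned WT cells and in 0.833%, 0 and 0.433% of thinned *Tln1*ΔMC cells (exact permutation p = 0.1), but these shares rest on 13 and 6 cells. Averaged over all drawings they were 1.78%, 2.79% and 0.75% against 1.08%, 0.0318% and 0.337%, and overlapped.

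Cells were grouped anew with the 7 genes left out of the clustering, so that their levels did not shape the groups. MC-like cells (2038 cells in 9 clusters) read 2.78 for *Itgb1* (exact 95% Poisson interval 2.67 to 2.90), 0.853 for *Itgb7* and 0.332 for *Itgb1bp1*. *Itgb5* gave 8 transcripts in these cells (0.0102 per 10000), none of them in WT mice, and *Itgb2* gave 43 (0.0549). Over the 9 MC-like clusters *Itgb1* ranged from 2.33 to 3.28 and *Itgb7* from 0.747 to 0.989, so that every MC-like cluster held both genes.

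Macrophage-like cells stood out for *Itgb2*, with 34 transcripts in 91 cells and a level of 0.837 (0.579 to 1.17), above the 0.0549 of MC-like cells. Of these cells 79 came from WT mouse 2, and without library 3 of that mouse the level was 1.41. They also held *Cpa3* at 99.3 per 10000 and *Itgb7* at 0.689. Keratinocyte-like cells, most of them from *Tln1*ΔMC mouse 3, held *Itgb5* at 0.160, all of it from library 8 of that mouse, and *Itgb7* at 0.506. Fibroblast-like cells (84 cells, 42 of them from WT mouse 2) held *Itgb5* at 0.254 and *Itgb8* at 0.169.

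In *Myh11-GFP* libraries, VSMC-like cells (4 clusters) held *Itgb1* at 10.4 (9.64 to 11.2) and pericyte-like cells (50 cells) at 8.18 (7.19 to 9.27), and *Itgb5* at 0.759 and 0.634 with intervals that overlapped. No vascular smooth muscle marker was 2-fold above the other cells in any of these 4 clusters. The pericyte marker *Cspg4* was at least 2-fold above the other cells in those of 80 and 46 cells. Their name rests on the number of markers found in at least 25% of cells, out of 11 smooth muscle and 9 pericyte genes. A small fibroblast-like cluster of 9 cells read lower for *Itgb1*, at 2.65 (1.81 to 3.74), and had the highest *Itgb5* of these groups, at 1.16 (0.634 to 1.94). Endothelial-like cells were 6 and read 7.51 for *Itgb1* (4.81 to 11.2). *Itgb7* had 0 transcripts in all of these clusters. A cluster of 59 cells, led by the pericyte markers *Kcnj8* and *Abcc9* and the fibroblast marker *Sparc*, was left unnamed and is not among them.

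**Figure D4:**
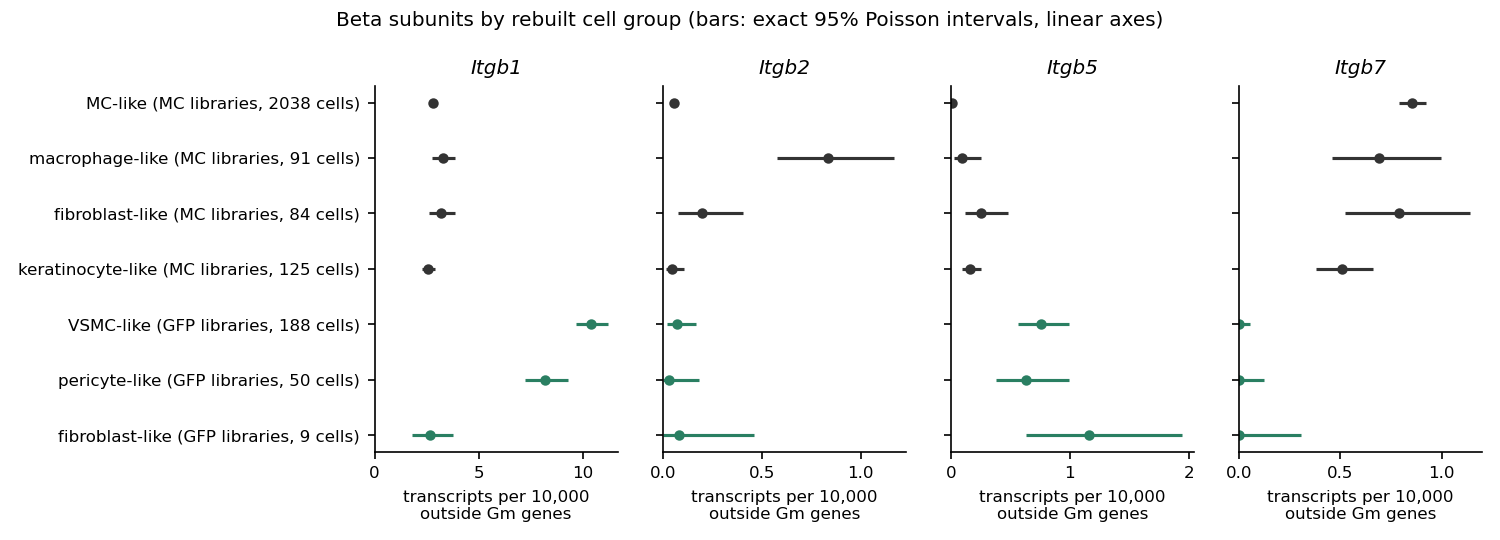
Transcripts per 10000 outside Gm genes (x axes, linear, a scale for each gene) of *Itgb1*, *Itgb2*, *Itgb5* and *Itgb7* in rebuilt cell groups (y axis) of MC libraries (dark) and *Myh11-GFP* libraries (green), with exact 95% Poisson intervals. *Itgb2* stood at 0.837 in macrophage-like cells against 0.0549 in MC-like cells, and *Itgb1* at 10.4 and 8.18 in VSMC-like and pericyte-like cells.

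Each library used a single set of the plate barcodes, and the barcodes of the other set, which stand for no sorted cell, gave a background level. Of that set, 17 barcodes over all libraries passed 1000 transcripts and are counted among the kept cells, 9 in MC and 8 in *Myh11-GFP* libraries, and the rest are the unused barcodes here. Per 1000 barcodes, *Itgb1* read 1117 in kept and 19.9 in unused barcodes of MC libraries, and 3782 and 77.1 in those of *Myh11-GFP* libraries. *Itgb7* read 322 and 3.83 in MC libraries, and *Itgb5* 303 and 5.32 in *Myh11-GFP* libraries. Unused barcodes held on average 2.64% (MC) and 2.62% (*Myh11-GFP*) of the transcripts of kept ones, so that genes read far lower in them by depth alone. Per 10000 transcripts, unused barcodes read 1.88 (MC) and 6.74 (*Myh11-GFP*) for *Itgb1*, and 0.362 for *Itgb7* in MC libraries. For *Itgb2* they read 0.461 (MC, 14 transcripts) and 1.86 (*Myh11-GFP*, 8 transcripts). Both lay above the kept cells, which read at most 0.314 in any MC mouse and 0.0836 in any *Myh11-GFP* library. Counted per 1000 barcodes, *Itgb2* differed less than the other genes between kept and unused barcodes: kept WT barcodes read 70.8 against 3.48 in unused ones, and kept *Tln1*ΔMC barcodes 18.4 against 5.81. In *Tln1*ΔMC mouse 1 kept and unused barcodes read 21.1 and 18.2, and in *Myh11-GFP* libraries 27.3 (12.5 to 51.8) and 21.3 (9.19 to 41.9), so that *Itgb2* in these cells could not be told from background.

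Single libraries spread more widely than mice. *Itgb1* ranged from 2.47 to 4.05 with a median of 3.15 in 12 WT libraries and from 2.04 to 3.09 with a median of 2.79 in 18 *Tln1*ΔMC libraries, so that libraries overlapped where mice did not. *Itgb7* ranged from 0.603 to 1.15 (median 0.969) and from 0.373 to 1.03 (median 0.827), and no MC library was without it. *Itgb2* was absent from 2 of the WT and 6 of the *Tln1*ΔMC libraries, and its medians were 0.198 and 0.0324.

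Levels also differed with the Gm share of a cell. Pooled over the 6 mice, *Itgb8* read 0.117 (0.0670 to 0.190) in 733 cells with at least 50% Gm transcripts and 0.0199 (0.0116 to 0.0319) in the other 1744 cells, while *Itgb1* read 2.28 (2.03 to 2.55) and 2.87 (2.76 to 2.99). Within mice, *Itgb8* was higher in cells with at least 50% Gm transcripts in WT mouse 1 (0.153 against 0.0331) and *Tln1*ΔMC mice 1 and 2 (0.215 against 0.0337, and 0.163 against 0.0133) but not in the other 3 mice, and *Itgb1* was lower in 5 of 6 mice but read 2.93 against 2.67 in *Tln1*ΔMC mouse 3. That mouse, with a single *Itgb8* transcript, gave 47 of the 733 cells. What part the Gm share has in these levels was not tested.

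None of the fixed lists of related genes held a gene that limma called between genotypes. The share of all genes at an unadjusted p under 0.05 was 2.35% lower and 3.50% higher, as above. Among α subunits 7 of 18 were tested, 1 of them higher at that level, with a median log2 fold change of 0.11 against -0.0003 over all genes. *Itga2*, which with β1 forms the collagen receptor α2β1, had the smallest p of the list: it read 0.428, 0.349 and 0.372 per 10000 in WT mice and 1.13, 0.798 and 0.922 in *Tln1*ΔMC mice. These did not overlap, and its log2 fold change of 1.31 ± 0.20 (SE) had an adjusted p of 0.437 in limma. *Itga2b* and *Itga9* had log2 fold changes of 0.08 and 0.11, and *Itga4* of 0.44 with an adjusted p of 0.844.

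Of talins and kindlins, which bind β tails, 3 of 5 genes were tested (median -0.25): *Tln1* had a log2 fold change of -0.31 ± 0.25 (SE) with an adjusted p of 0.875 in limma, *Fermt3*, the kindlin of blood cells, one of 0.14, and *Fermt2* one of -0.25. *Fermt3* read between 1.40 and 2.38 per 10000 in MCs and 0 in all 4 *Myh11-GFP* libraries, and *Fermt2* between 0.215 and 0.532 in MCs and between 3.39 and 4.38 in *Myh11-GFP* libraries. The other β tail binders and ICAP1 partners (12 of 14 tested, median -0.13) held *Dab2*, an adaptor protein, as the 1 gene lower at an unadjusted p under 0.05 (log2 fold change -2.14), and included *Tns1*, *Rock1*, *Tns3* and *Pdcd10*, with log2 fold changes of -0.12, 0.35, -0.25 and 0.13. Adhesion adaptors and kinases (18 of 21 tested, median -0.03) included *Zyx*, *Rap1b*, *Actn4* and *Rap1a*, with 0.01, -0.15, -0.17 and 0.08, and neither this list nor the talins and kindlins held a gene at an unadjusted p under 0.05.

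The ligands of integrins (8 of 25 tested, median -0.49) held 4 genes lower at an unadjusted p under 0.05 and none higher, namely *Fn1*, *Icam1*, *Postn* (log2 fold change -3.58) and *Fbn1* (-1.63), the last 2 and *Dab2* being named after their values were seen. *Fn1*, which encodes the β1 ligand fibronectin, read between 0.301 and 0.905 in WT and between 0.0134 and 0.154 in *Tln1*ΔMC mice, with a log2 fold change of -3.11 ± 0.71 (SE) and an adjusted p of 0.489 in limma. *Icam1*, a ligand of β2 integrins, had -0.60 ± 0.22 (SE) with an adjusted p of 0.718, and *Tgfb1* and *F11r* had 0.06 and 0.17. Fibroblast markers (10 genes) moved with *Fn1*: they summed to 27.96, 100.1 and 74.6 per 10000 in WT mice and to 13.6, 2.92 and 1.40 in *Tln1*ΔMC mice, with *Col6a1* at 0 in *Tln1*ΔMC mouse 2, and their part in the *Fn1* result was not tested. The last list, *Itgb4*, *Itgb6*, *Itgbl1* and *Itgb1bp2*, had *Itgb4* as its tested gene, with a log2 fold change of -0.21.

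Over the 6 mice and 4 *Myh11-GFP* libraries, the genes with the profile most like each gene were sought among 10831 genes. By Pearson's r of log2 levels, *Itgb1* was most like *Olfml2b* (0.998), *Col4a1* (0.997) and *Lamb2* (0.997), and the last of these encodes a laminin chain. *Itgb5* was most like *Prss23* (0.996), *Phldb1* (0.994) and *Inf2* (0.994), and *Itgb7* most like *Ddc*, *Galnt6* and *Cma2* (0.9995, 0.999 and 0.998), which like it were at 0 in all *Myh11-GFP* libraries. *Itgb2* was most like *Ly86* (0.935), a gene of macrophages and B cells, followed by *Paics* and *Npm1* (0.881 and 0.871), and *Itgb1bp1* most like *M6pr*, *Supt4a* and *Poc5* (0.966, 0.896 and 0.886). The 10 points share libraries and cell kinds, and these values are a description.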

How the data were processed

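Single cells of ear skin were sequenced by mCEL-Seq2, a plate-based 3' protocol with molecular identifiers, in 34 libraries. The authors made the tables with bcl2fastq 2.17.1.14 and BWA 0.6.2-r126 on mm10 gene models, discarded reads that mapped to several loci and merged overlapping loci. The deposited values are transcript counts per gene and barcode, corrected by the authors for repeated use of an identifier: every value is a whole UMI count so converted for 4096 possible identifiers, to within 1e-09. The count model that had been planned was to run on sums rounded to whole numbers, so that values that are not whole did not exclude it. The values were entered here as a unit other than counts. Under the plan, the place of that model was then taken by limma 3.58.1 (R 4.3.3) with a trend. It was run on log2 of TMM-scaled transcripts per 1000000 plus 1, summed by mouse, with Benjamini-Hochberg adjustment over 8601 genes. Tested on simulated data for *Tln1*ΔMC against WT, the share recovered was 62.6% of 190 genes with a 2-fold change (8677 genes, 6 called wrongly) and 97.9% of 195 with a 4-fold change (8670 genes, 8 called wrongly). The simulated counts had a dispersion of 0.02 for every gene and no sets of libraries or mixed cells. These shares therefore do not give the power in the measured data. There *Itgb2*, at a log2 fold change of -2.07, had an adjusted p of 0.489 in limma. Cells were clustered with scanpy 1.11.5 and leidenalg 0.10.2 (resolution 1), and doublets, which the sort had gated out, were not called again. Kept cells gave 9909218 transcripts outside Gm genes in MC libraries. Intervals and limits of a count of 0 cover counting error only, and p-values measure the spread between mice.

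The 7 genes and the lists were chosen with earlier results of these data known. The text names, besides the 7 genes, at most the 4 genes of each list with the highest mean level in MCs and the 3 most alike genes of each gene with at least 50 transcripts, and says where a gene was picked otherwise. Alternatives comprised other totals, filters, cells, weights, blocks and thinning depths. A pair of tables of barcode names matched no library title and was not used here. Gene positions come from GENCODE M21 on GRCm38.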

Additional observations from a re-analysis of the deposited data

Results flagged for a closer look

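*Itgb3* had 1 transcript in a single *Myh11-GFP* library and 0 in the other 3, so that the gap to the nearest library was the whole range of the group, a ratio of 1.0. Chance marks about 1 in 20 groups in this way, and a group with a single transcript is always marked.

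Unused barcodes, which served as background and to sort libraries into sets, held transcripts of several of the genes above the limit that a count of 0 allows. In MC libraries *Itgb1* read 19.9 transcripts per 1000 unused barcodes, *Itgb2* 4.88, and *Itgb7* and *Itgb1bp1* 3.83 each. In *Myh11-GFP* libraries *Itgb1* read 77.1 and *Itgb2* 21.3 transcripts per 1000 unused barcodes.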

How the results depend on the processing

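No alternative called any of the 7 genes between genotypes. The log2 fold change of *Itgb1* was negative in 22 of 22 alternatives (-0.28 to -0.14, limma adjusted p 0.563 to 0.999), that of *Itgb2* in 21 of 21 (-2.53 to -1.62, 0.114 to 0.999), that of *Itgb7* in 22 of 22 (-0.34 to -0.0075) and that of *Itgb1bp1* in 22 of 22 (-0.48 to -0.12). Over all genes, limma called 2 lower with voom weights and 4 with the unused-barcode set as a block. Leaving out each mouse gave 0 to 12 genes lower, 12 without *Tln1*ΔMC mouse 1, 1 without WT mouse 1 and 0 without each of the other 4, and 0 higher. The cause was not tested. Same-numbered mice of the genotypes had correlations of 0.163, -0.212 and -0.266, as deviations from the genotype means. WT mouse 1 correlated best with the *Tln1*ΔMC mouse of its number, and WT mice 2 and 3 did not. Whether the numbers pair littermates was not tested. With the number as a replicate block, limma called 0 genes, and *Itgb2* had -2.07 with an adjusted p of 0.742.

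Totals that include Gm genes, which lower every level by construction, gave 1.62 for *Itgb1* and 0.468 for *Itgb7* in MCs (2.90 and 0.847 without Gm genes), and 7.01 for *Itgb1* and 0.573 for *Itgb5* in *Myh11-GFP* cells (8.64 and 0.706). A mean over cells gave 2.46 for *Itgb1* in MCs. With clusters named for other cell types left out, *Itgb5* in MCs read 0.00600 in place of 0.0312 and *Itgb1* in *Myh11-GFP* cells 9.69. In macrophage-like cells *Itgb2* ranged from 0.755 to 1.41 when each library was left out, the last without library 3 of WT mouse 2, and in keratinocyte-like cells *Itgb5* from 0 to 0.180, the first without library 8 of *Tln1*ΔMC mouse 3. Detection differences in percentage points, *Tln1*ΔMC minus WT, changed sign without thinning for *Itgb1* (8.15 from -0.149), *Itgb7* (3.15 from -0.412) and *Itgb8* (-0.0311 from 0.220), and at 500 UMIs for *Itgb5* (0.243 from -0.0550) and *Itgb8* (-0.110).

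The edgeR quasi-likelihood test and DESeq2 were planned and not run. The deposited values are converted UMI counts that were entered as a unit other than counts, and limma was used on them and, as an alternative, on the whole UMIs recovered from them. Voom weights, the unused-barcode block, the used barcode set, the left-out libraries, MC-like clusters, cells under 50% Gm and shares over all thinnings were added after the data had been seen. *Itgb3*, *Itgb5* and *Itgb8* were too rare to compare genotypes at this depth, and with 3 mice a genotype the exact test cannot go below 0.1.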

Other observations

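*Itgb4*, which encodes the β4 subunit of epithelial hemidesmosomes, was found in the MC libraries at 0.359 to 0.602 transcripts per 10000 over the 6 mice, above *Itgb2* in each of them, and at 0 to 0.398 in the *Myh11-GFP* libraries. In 1950 cells of MC libraries without a transcript of the 9 keratinocyte markers it read 0.406 (exact 95% Poisson interval 0.359 to 0.457), and between 0.358 and 0.468 in the single mice. The other 527 cells read 0.718 (0.628 to 0.817), and keratinocyte-like cells 1.38. VSMC-like and pericyte-like cells held 0 transcripts of *Itgb4*. The gene was chosen after its values were seen, and the part of keratinocyte transcripts in its level was not tested further.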
